A study of Thunnus thynnus with 30 samples.

Results

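Larvae of the Atlantic bluefin tuna (Thunnus thynnus), taken whole and fed low-DHA prey, were compared at 10 and 5 days post-hatch (dph), across all genes of the count table. The members are the columns titled for low DHA at these ages, 3 libraries at 10 dph and 3 at 5 dph, which makes 6 of the 26 libraries with counts and 6 of the 30 samples in the series. DHA is docosahexaenoic acid, a long-chain omega-3 fatty acid. The low-DHA larvae ate rotifers (Brachionus rotundiformis, small live prey) with 2 mg DHA per g dry weight, raised on an enrichment with 5.5% DHA among its fatty acids. All larvae of the study are labelled WT, ate enriched rotifers from 2 to 15 dph and were kept in 3 tanks per diet. Larvae fed rotifers with 3.6 (medium) or 10.9 (high) mg DHA per g dry weight, on enrichments with 15% or 32% DHA, serve as comparison, with 3 libraries per age and diet except 2 for high DHA at 5 dph. Neither the number of larvae in a library nor the tank of each library is given in the sources used here. The p-values and SE of genes therefore measure the spread between libraries, estimated over the 9 groups of all 26 and not from the 6 alone. Low-DHA libraries of 10 dph differed more among themselves (r of log2 levels 0.9813 to 0.9889) than those of 5 dph (0.9956 to 0.9961).

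A bluefin tuna larva at 5 dph has used up its yolk and depends on live prey. Over the following days marine fish larvae ossify the first skeletal elements, build swimming muscle, enlarge the liver and the pancreas, and grow in mass, on a diet that must supply DHA because marine fish make little of it. The liver stores and exports the lipid absorbed from prey. In vertebrates, fasting and cortisol switch on a set of muscle genes for protein breakdown and for sparing glucose, and feeding and insulin switch them off.

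The libraries held 12805866 to 15908515 counts at 5 dph and 16302979 to 16634803 counts at 10 dph. Levels are CPM, counts scaled to a common library total, which are not corrected for transcript length, and in RNA from whole larvae fewer cells of a type and less RNA per cell cannot be told apart. At both ages the table held high levels for markers of muscle (CKM, 9520 to 13200 CPM in the 6 libraries), liver (apoa1, 10000 to 19400 CPM) and exocrine pancreas (CELA2A, 2910 to 5300 CPM). The totals did not overlap between the ages. Neither did the library scaling factors (TMM), 1.05 to 1.08 at 5 dph and 0.861 to 0.968 at 10 dph. 2 further measures of the libraries moved with age. The first is a length score, the mean log2 level of 45 rows of very long transcripts minus that of 146 rows of short respiratory chain and ribosomal transcripts. It was -3.61, -3.32 and -3.4 in the 5 dph libraries and -4.05, -5.13 and -4.56 in the 10 dph libraries, so the groups did not overlap, and the second 10 dph library was the lowest of all 26. The second is the summed level of 69 prey-like rows, described further on, which fell from 176 to 264 CPM at 5 dph to 0.89 to 10.2 CPM at 10 dph. Exact two-sided permutation tests gave p = 0.1 for each of these 2 measures, for the totals and for the scaling factors. This is the smallest p that 3 libraries against 3 allow. In medium DHA the length score went the other way, from a mean of -4.44 at 5 dph to -3.73 at 10 dph, and in high DHA it was -3.88 at both ages. The part of these measures in the results was not tested, but the counts of the lists below are also given with the length score as a covariate. The score is built from ribosomal, respiratory chain and long transcripts, so the covariate removes part of any change in those genes by construction. Because the score did not overlap between the ages, it also goes with age itself, which can lower the precision for any row. A lost call is therefore not always a smaller change. CLOCK had a log2 fold change of 1.05 without and 1.22 with the covariate (adjusted p = 0.0075 and 0.089, edgeR). For HADHB, a fatty acid oxidation gene, these were 0.60 and 0.22 (adjusted p = 0.00013 and 0.28, edgeR).

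**Figure D1:**
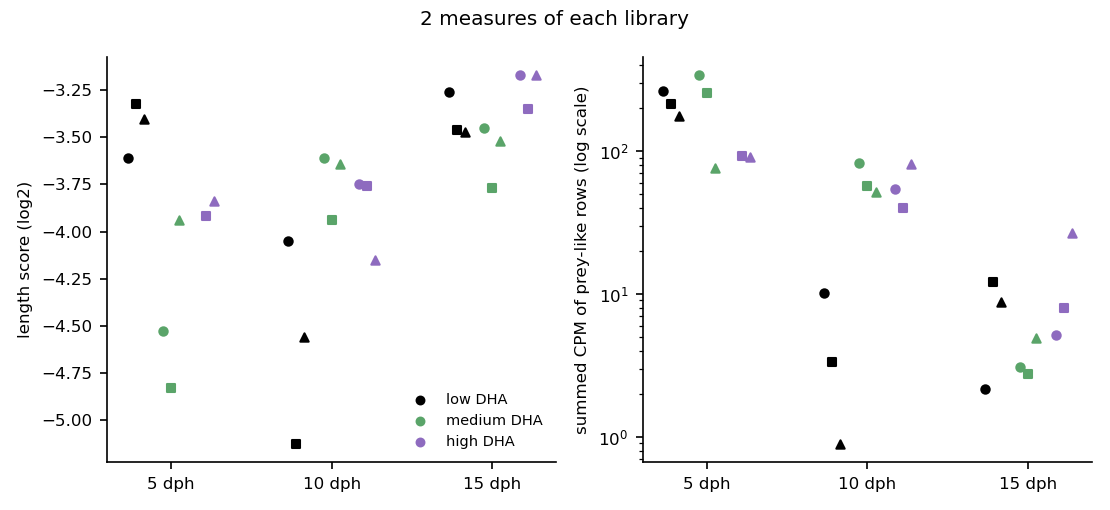
The length score (left, log2 units) and the summed CPM of the 69 prey-like rows (right, log scale) in each of the 26 libraries, by age and diet, with replicate numbers 1, 2 and 3 drawn as circles, squares and triangles. Among low-DHA libraries (black) the 10 dph length scores, -5.13 to -4.05, lie below the 5 dph ones, -3.61 to -3.32.

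Of 7292 tested rows, 4317 differed between 10 and 5 dph in low-DHA larvae (edgeR's quasi-likelihood test with Benjamini-Hochberg adjustment, adjusted p under 0.05), 2210 higher and 2107 lower at 10 dph. These are 30.3% and 28.9% of all rows, 59.2% together, and every count of list members below is to be read against these shares. The median log2 fold change of all rows was 0.04. The falls were larger than the rises: 955 rows fell by more than 2-fold and 263 rose by more than 2-fold. In 2144 of the called rises and 2086 of the called falls the 3 libraries of 10 dph all lay outside the range of the 3 libraries of 5 dph; over all tested rows such separation was seen upward in 36.4% and downward in 34.1%. With library totals as the only scaling, 1053 rows were called higher and 2990 lower, the share of rises among calls was 26% in place of 51.2%, and the median of all rows was -0.19, so small rises depend on the scaling.

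**Figure D2:**
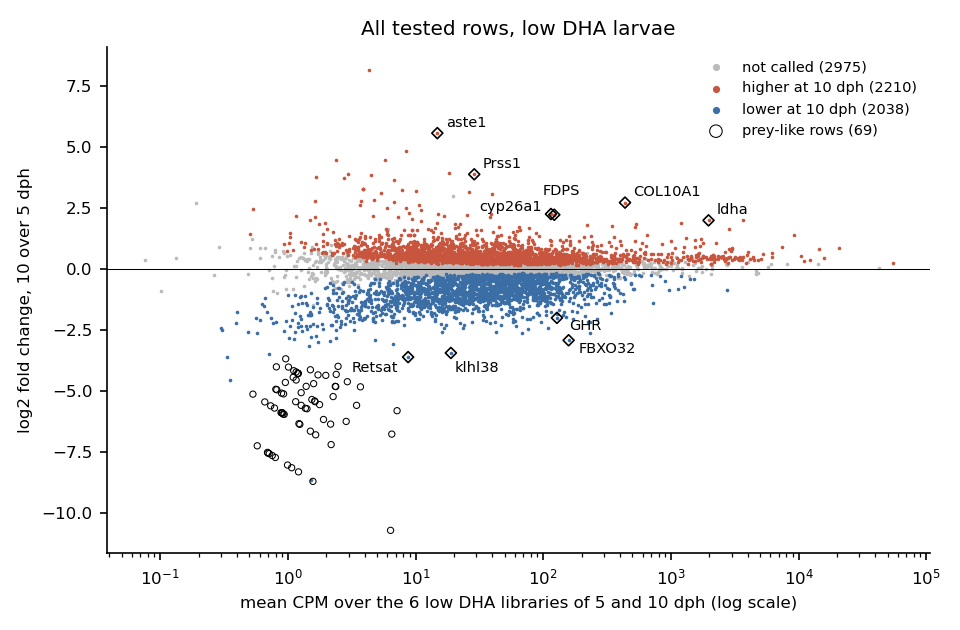
Log2 fold change, 10 over 5 dph, of all tested rows in low-DHA larvae against their mean CPM (log scale), coloured by call, with prey-like rows as open circles and 10 named genes as diamonds. The prey-like rows lie below 10 CPM and far below 0, apart from the main cloud.

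The genes of cholesterol synthesis stood higher at 10 dph nearly throughout. Of 22 measured members of the sterol list, 20 rose and 2 fell, and their median log2 fold change was 1.05. FDPS, which makes farnesyl diphosphate for the sterol pathway, measured 40.4, 39.9 and 38.7 CPM at 5 dph and 219, 191 and 158 CPM at 10 dph. The groups lay far apart, with a log2 fold change of 2.26 ± 0.20 (SE, n = 3 and 3 libraries, edgeR adjusted p = 2.5e-08). NSDHL, a demethylating enzyme late in the pathway, went from 14.3, 13.3 and 14.5 CPM to 79.3, 57.5 and 49.7 CPM (log2 fold change 2.14 ± 0.22). The first library of 10 dph was the highest of its group for both of these enzymes. A member that fell, insig1, which holds the sterol-sensing SREBP system in check, is not an enzyme of the pathway and went from 143 to 177 CPM to 88.6 to 114 CPM (-0.65 ± 0.20). When the length score was added as a covariate, 18 were called higher and 0 lower, with a median of 1.05.

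Genes that move sterols and bile acids also changed. Abcg8, part of the pump that returns sterols to the gut and bile, rose from 8.83 to 10.8 CPM at 5 dph to 25.7 to 35.6 CPM at 10 dph (log2 fold change 1.68 ± 0.24, adjusted p = 4.7e-06 by edgeR). CYP7A1 and CYP8B1, which start bile acid synthesis and set its 12-hydroxylation, rose by 1.01 ± 0.19 and 1.84 ± 0.15. ABCB11, the bile salt export pump of liver cells, fell from 37.6 to 41.5 CPM to 12.9 to 17.4 CPM (-1.37 ± 0.21). In the list of lipid transport genes 13 of 26 members rose and 6 fell, against 8 and 9 with library totals as the only scaling. FABP2, an intestinal fatty acid binding protein, went from 359 to 476 CPM to 760 to 989 CPM (0.95 ± 0.16), and FABP7, a brain fatty acid binding protein with high affinity for DHA, from 178 to 206 CPM to 344 to 422 CPM (0.97 ± 0.13). LPL, the lipase that frees fatty acids from lipoproteins, fell from 289 to 308 CPM to 133 to 152 CPM (-1.09 ± 0.13), ABCA1, which loads cholesterol onto HDL, fell by 1.05 ± 0.15, and SCARB1, the HDL receptor, fell by 0.79 ± 0.14. Fitted with the length score, 5 of the 26 transport genes were called higher and 3 lower.

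Members of the fatty acid synthesis list moved both ways, 6 of 14 higher and 3 lower, or 3 and 5 with library totals only and 4 and 2 with the length score as a covariate. The rises were led by G0s2, an inhibitor of the fat-store lipase ATGL, which measured 1.2, 1.16 and 0.951 CPM at 5 dph and 12.2, 7.98 and 8.76 CPM at 10 dph (log2 fold change 3.12 ± 0.52, edgeR adjusted p = 2.4e-05). The second was mid1ip1b, a regulator of acetyl-CoA carboxylase, at 12.1, 6.8 and 5.64 CPM and then 65.3, 93.2 and 54.9 CPM (3.10 ± 0.34). The elongase row elovl6 followed with 1.54 ± 0.15. No library of one age overlapped the other for these genes. LPIN1, a phosphatidate phosphatase that fasting raises in mammalian liver, fell by 2.16 ± 0.25, ACACB, the mitochondrial acetyl-CoA carboxylase, by 1.46 ± 0.19, and Gpam, which starts glycerolipid synthesis, by 0.35 ± 0.09. Of 7 genes of long-chain polyunsaturated fatty acid synthesis 4 rose and 0 fell, against 1 and 1 with library totals only. fads2, the desaturase of this pathway, measured 9.49, 9.05 and 11.7 CPM at 5 dph and 15.7, 11.5 and 14.4 CPM at 10 dph. The 2 groups overlapped, because the lowest 10 dph library lay under the highest 5 dph library, and the log2 fold change was 0.46 ± 0.13 (adjusted p = 0.0042 by edgeR). Tecr, the last enzyme of each elongation round, rose by 0.65 ± 0.10. Of these, 2 were called higher with the length score as a covariate. Among fatty acid oxidation genes 7 of 19 rose and 6 fell, against 3 and 9 with library totals only and 1 and 4 with the covariate. HADHB, Hadha and cpt2 of the mitochondrial pathway rose by 0.51 to 0.60, with adjusted p of 0.28 for HADHB and 0.52 for cpt2 (edgeR) under the covariate, and PPARA, the fatty acid sensor that drives oxidation genes, fell by 0.86 ± 0.11.

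The genes known to respond to fasting and cortisol and to mark muscle wasting stood lower at 10 dph. Of 29 members 23 fell and 3 rose, with a median log2 fold change of -1.05. FBXO32 (atrogin-1), the ubiquitin ligase that marks muscle protein for breakdown, measured 245, 307 and 284 CPM at 5 dph and 52.3, 25.7 and 32.4 CPM at 10 dph. It fell by 2.92 ± 0.25 on the log2 scale (edgeR adjusted p = 1.8e-08), and the highest 10 dph library stood far under the lowest 5 dph library. TRIM63 (MuRF1), the second classic ligase of muscle wasting, went from 110, 107 and 88.9 CPM to 23.5, 19.8 and 17 CPM (-2.34 ± 0.36). klhl38, a muscle gene raised in wasting muscle of other vertebrates, went from 31.1, 37.3 and 35.3 CPM to 4.53, 1.91 and 3.01 CPM (-3.44 ± 0.35).

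Further members covered fuel choice, cortisol and insulin signalling. PDK2, the kinase that closes pyruvate dehydrogenase and so spares glucose, fell from 358, 434 and 407 CPM to 72.4, 45.8 and 75 CPM (log2 fold change -2.63 ± 0.38, edgeR adjusted p = 7.2e-06). A second row with this name but for capitals fell less, from a mean of 120 to 63.8 CPM (-0.91 ± 0.18). FKBP5 and KLF9, glucocorticoid-induced genes, fell by 1.39 ± 0.24 and 2.29 ± 0.27, and nr3c1, the glucocorticoid receptor, by 1.05 ± 0.16. Both rows of insulin receptor substrate 2, IRS2 and Irs2, fell, by 1.72 ± 0.15 and 1.85 ± 0.18, and the FOXO transcription factor rows foxo1a, FOXO3 and Foxo4 fell by 0.86 to 1.33. The 3 members that rose were G0s2, GADD45A (0.76 ± 0.14), a growth arrest gene, and CEBPB (0.69 ± 0.21), a transcription factor of liver and fat. With the length score as a covariate 16 of the 29 were called lower and 1 higher, with a median of -0.82, and FBXO32 then fell by 2.42 (adjusted p = 0.00027, edgeR). KLF9 (-1.87) was still called there, whereas FKBP5 (-1.01) and nr3c1 (-0.32) had adjusted p of 0.06 and 0.12 (edgeR).

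Outside that list, the largest falls of the table included the following genes. CREBRF, a regulator of the stress and energy balance, went from 104, 123 and 124 CPM at 5 dph to 25.2, 13.6 and 17.2 CPM at 10 dph (log2 fold change -2.64 ± 0.25, edgeR adjusted p = 5e-08). Retreg1, a receptor for autophagy of the endoplasmic reticulum, fell (-2.45 ± 0.36), as did KLHL24, a ubiquitin ligase adaptor (-2.56 ± 0.31), Hbp1, a repressor of cell cycle genes (-2.40 ± 0.31), and znf395, a zinc finger protein (-2.41 ± 0.27). Genes of the growth axis were measured too. GHR, the growth hormone receptor, went from 197, 211 and 205 CPM to 57.3, 45.6 and 50.6 CPM (-2.00 ± 0.25), and Igf1r, the receptor of insulin-like growth factor 1, from 170, 180 and 178 CPM to 80.3, 49.7 and 64 CPM (-1.44 ± 0.17). The thyroid hormone receptor row thrb fell by 1.44 ± 0.21. The insulin gene ins rose from 25.8, 21.2 and 19.4 CPM to 26.7, 33.8 and 32.9 CPM (0.49 ± 0.12). Together 6 of 11 growth and endocrine genes fell and 2 rose, against 8 and 0 with library totals only. The covariate left 3 called lower and 1 higher, and ins had a log2 fold change of 0.23 (adjusted p = 0.35, edgeR).

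**Figure D3:**
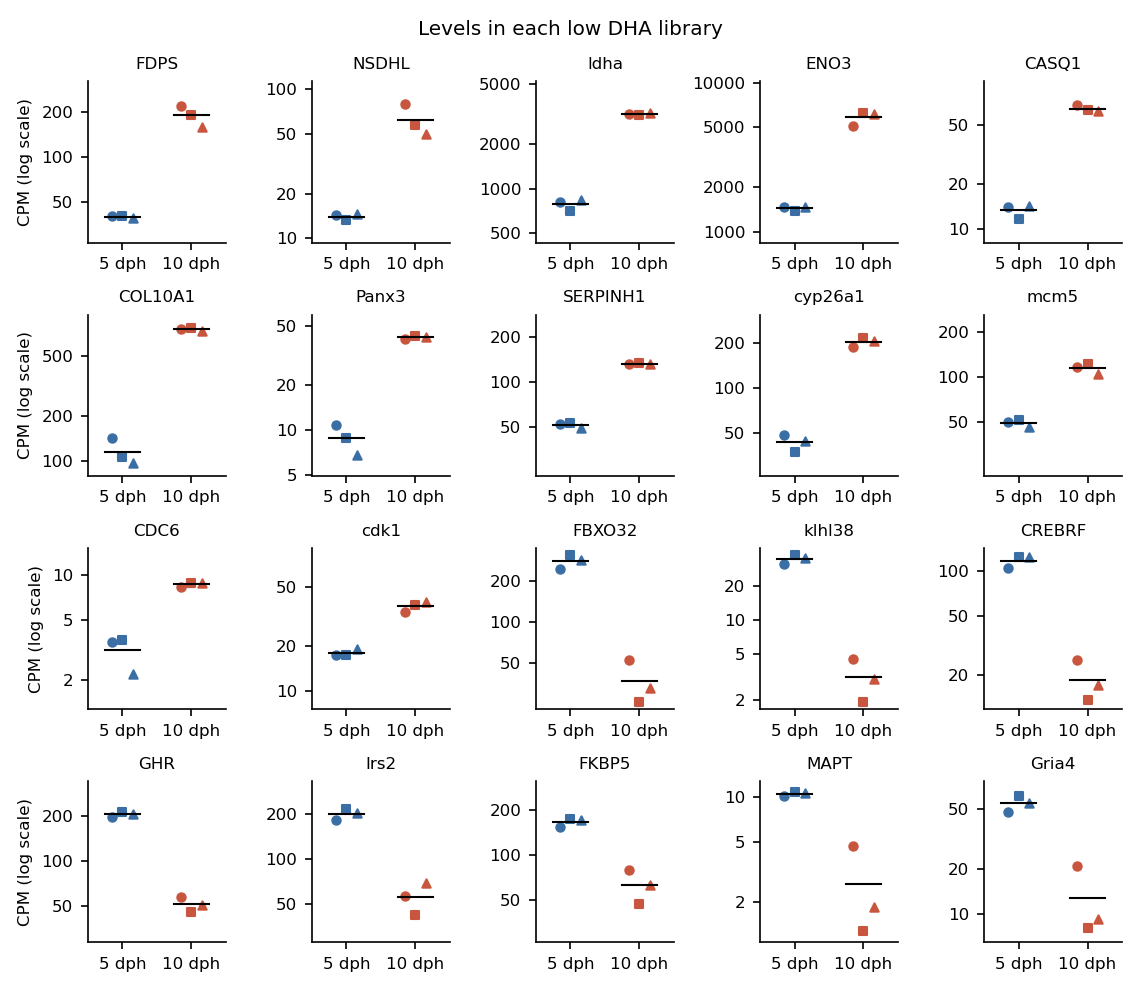
CPM (log scale, its span differing between panels) of 20 genes in each low-DHA library, 5 dph in blue and 10 dph in red, with replicate numbers 1, 2 and 3 as circles, squares and triangles and a line at the group mean. No group overlaps the other in any panel; FDPS stands at 38.7 to 40.4 CPM at 5 dph and at 158 to 219 CPM at 10 dph.

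Glycolysis and fast muscle genes rose in part. Of 23 glycolysis genes 13 rose and 2 fell, with a median log2 fold change of 0.47, against 12 and 6 with library totals only and 9 and 3 with the covariate. ldha, the muscle-type lactate dehydrogenase, measured 818, 706 and 834 CPM at 5 dph and 3150, 3090 and 3200 CPM at 10 dph (log2 fold change 2.00 ± 0.15, edgeR adjusted p = 1.7e-09). ENO3, muscle enolase, went from 1470, 1380 and 1470 CPM to 5140, 6230 and 6150 CPM (2.02 ± 0.20), and PGAM2, muscle phosphoglycerate mutase, rose by 1.88 ± 0.15. The 3 largest rises were in forms that muscle uses, while PFKFB3, a regulator of phosphofructokinase, fell by 1.04 ± 0.17 and PDHA1 of pyruvate dehydrogenase by 0.29. Of 34 fast muscle genes 16 rose and 5 fell, against 12 and 8 with library totals only. CASQ1, the calcium store protein of fast fibres, went from 14.1, 11.6 and 14.3 CPM to 68.1, 62.4 and 62.1 CPM (2.27 ± 0.19). The fallen members NEB (nebulin, -2.15 ± 0.50), RYR3 (-1.73) and Cacna1s (-1.40), calcium channels or giant sarcomere proteins, have very long transcripts. With the length score as a covariate 11 fast muscle genes were called higher and 0 lower, and NEB had a log2 fold change of -0.89 (adjusted p = 0.35, edgeR). Of 11 myogenic regulators 4 rose and 4 fell, with a median log2 fold change of 0. With library totals only 3 rose and 5 fell, and with the covariate 4 rose and 1 fell. Among the risen, MYF5 and myod1, which commit cells to muscle, rose by 1.08 ± 0.23 and 0.59 ± 0.15.

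Some skeletal and matrix genes rose with age, although 16 of 32 bone and cartilage genes and 25 of 49 collagen and matrix genes were not called. COL10A1, a collagen of maturing cartilage and, in fish, of bone-forming cells, measured 141, 106 and 97.1 CPM at 5 dph and 768, 774 and 735 CPM at 10 dph (log2 fold change 2.73 ± 0.17, edgeR adjusted p = 2.3e-10). Panx3, a channel of bone and cartilage cells, went from 10.8, 8.9 and 6.86 CPM to 40.8, 42.9 and 42.2 CPM (2.24 ± 0.14). MATN1, a cartilage matrix protein, went from 14.4, 16.2 and 17.5 CPM to 47.1, 52.1 and 49.3 CPM (1.62 ± 0.54). The 10 dph libraries of each were close to each other and well above all of 5 dph. Of 32 bone and cartilage genes, leaving out 1 prey-like row, 13 rose and 3 fell (6 and 5 with library totals only, 10 and 0 with the covariate), among the fallen SOX6 (-0.67), a cartilage transcription factor, and mmp13 (-0.36), a collagenase. Of 49 collagen and matrix genes 21 rose and 3 fell, against 10 and 7 with library totals only and 29 and 1 with the covariate. Here the rises were led by PCOLCE, which aids procollagen processing (1.65 ± 0.37), SERPINH1, the collagen chaperone (51.9, 52.7 and 49.2 CPM, then 132, 134 and 131 CPM), and col1a2 of type I collagen (1.16 ± 0.23). LOXL4, a collagen cross-linking oxidase, rose by 2.52 ± 0.22, and C1QL2, a secreted C1q-domain protein, from 5.05, 5.36 and 5.44 CPM to 41.7, 58.8 and 41.2 CPM (3.16 ± 0.25). The libraries of 10 dph agreed closely for SERPINH1, and all 3 stood above those of 5 dph for each of these genes.

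Genes of cell division rose broadly and by moderate amounts. Of 76 cell cycle genes 62 rose and 1 fell, with a median log2 fold change of 0.60, against 35 and 2 with library totals only. mcm5, part of the helicase that opens DNA for replication, measured 50.2, 51.8 and 46.6 CPM at 5 dph and 117, 122 and 105 CPM at 10 dph (log2 fold change 1.21 ± 0.18, edgeR adjusted p = 7.4e-06). CDC6, which loads that helicase, went from 3.6, 3.69 and 2.17 CPM to 8.32, 8.9 and 8.83 CPM (1.46 ± 0.27), and cdk1, the kinase that starts mitosis, from 17.4, 17.4 and 19 CPM to 34, 37.6 and 39.3 CPM (1.04 ± 0.13). The groups of these genes did not overlap. PRIM1, a primase subunit, rose by 1.41 ± 0.21 and rrm2, which makes DNA precursors, by 1.07 ± 0.15. The member that fell was uhrf1, which guides DNA methylation to new strands, from 10.4 to 12 CPM to 1.62 to 4.78 CPM (-1.73 ± 0.28), and its log2 fold change was -0.54 (adjusted p = 0.12, edgeR) with the length score as a covariate. With that covariate 45 of the 76 were called higher and 0 lower.

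Genes of protein production and turnover rose by small amounts, beside the fall of the length score. Of 113 ribosomal protein rows 35 were prey-like, a set chosen in part for a low 15 dph level, and all 35 were called lower. Leaving these out, 73 of 78 rose and 0 fell, with a median log2 fold change of 0.47, so that 0 follows in part from the choice. Of 68 nuclear genes of the respiratory chain 48 rose and 1 fell, with a median of 0.32. rps29 of the small subunit measured 582, 508 and 558 CPM at 5 dph and 712, 979 and 843 CPM at 10 dph (log2 fold change 0.62 ± 0.13, edgeR adjusted p = 0.00039). COX7B of cytochrome oxidase went from 208, 177 and 192 CPM to 252, 343 and 290 CPM (0.62 ± 0.12). The order of the 10 dph libraries in both genes, with the second highest and the first lowest, is the reverse of their order in the length score. Both genes are among the short transcripts that the score subtracts, so this reversal is in part built in. With that score as a covariate 0 of the 78 ribosomal rows were called, and 0 respiratory chain genes were called higher and 4 lower. With library totals as the only scaling these 78 ribosomal rows had 44 higher and 1 lower and the respiratory chain genes 10 and 3. The proteasome list had 24 of 35 members higher and 1 lower (2 and 2 with the covariate, 9 and 1 with library totals), and the splicing list 31 of 46 higher and 4 lower (10 and 2, and 20 and 7). Among genes of ribosome assembly 11 of 48 rose and 7 fell, against 5 and 25 with library totals as the only scaling and 2 and 10 with the covariate. DKC1, which modifies ribosomal RNA, went from 125, 120 and 117 CPM to 252, 283 and 258 CPM (1.14 ± 0.13) and still rose with the covariate, by 0.76. HSPA5, the main chaperone of the secretory pathway, went from 250, 227 and 253 CPM to 848, 851 and 724 CPM (1.73 ± 0.27), and 16 of 34 chaperone genes rose and 2 fell, against 5 and 4 with the covariate and 10 and 6 with library totals.

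**Figure D4:**
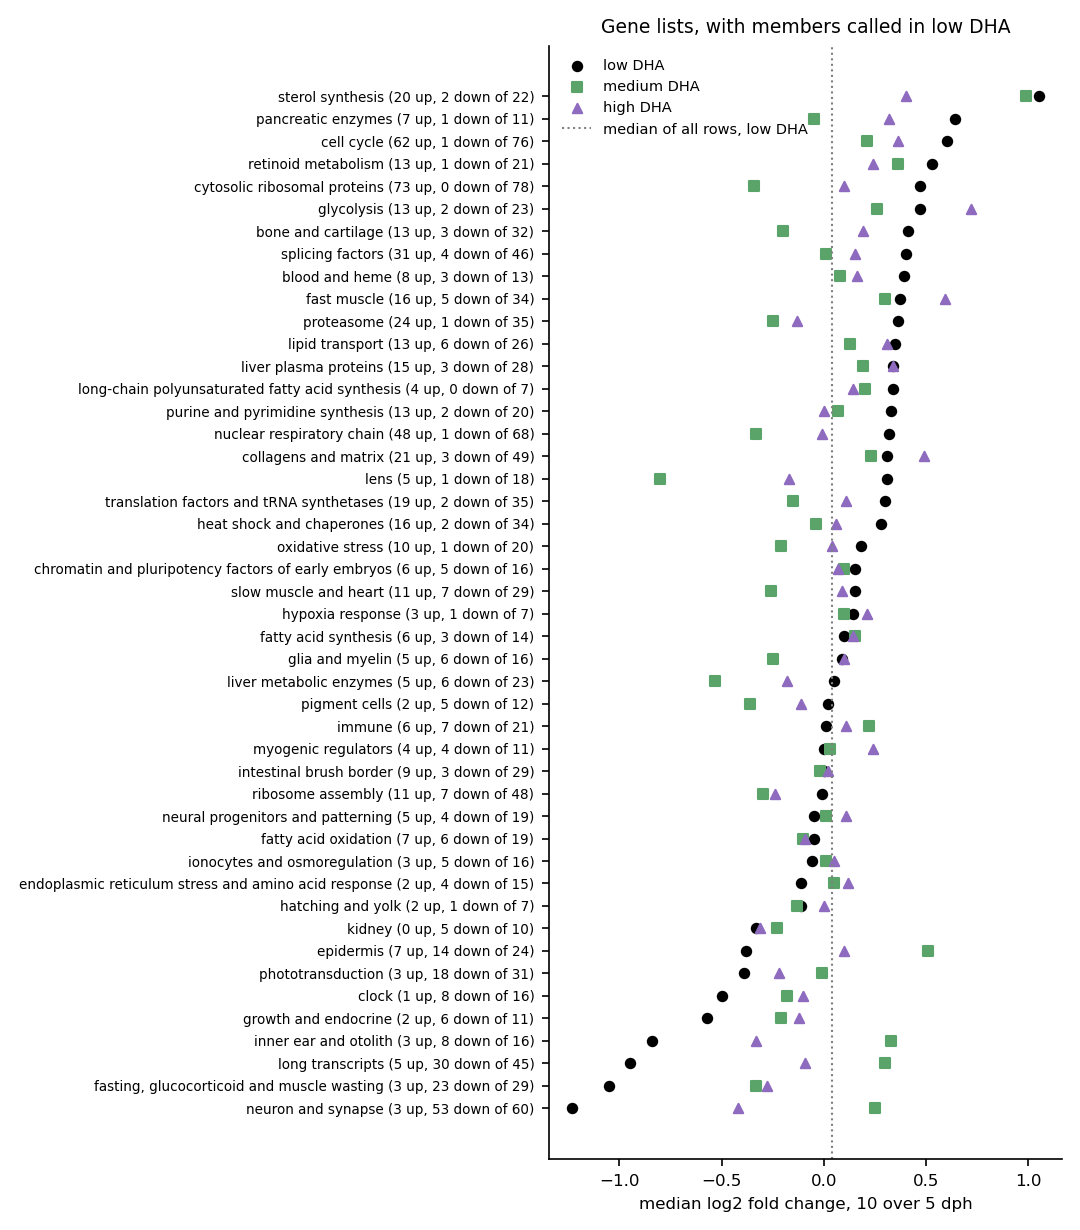
Median log2 fold change, 10 over 5 dph, of each list with at least 5 tested members in low (black circles), medium (green squares) and high DHA (purple triangles), prey-like rows left out, with the number of members called in low DHA. Sterol synthesis is at the top with 1.05, 0.99 and 0.40, and neuron and synapse genes are at the bottom with -1.23, 0.25 and -0.42.

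Genes of neurons and synapses stood lower at 10 dph. Of 60 members 53 fell and 3 rose, with a median log2 fold change of -1.23. Gria4, a subunit of the AMPA glutamate receptor, measured 47.7, 61.7 and 54.6 CPM at 5 dph and 20.9, 7.98 and 9.17 CPM at 10 dph (log2 fold change -2.10 ± 0.31, edgeR adjusted p = 7.6e-06). MAPT, the tau protein of axons, went from 10.2, 10.8 and 10.7 CPM to 4.72, 1.27 and 1.85 CPM (-1.98 ± 0.31), and CACNA1A, a presynaptic calcium channel, from 62.1, 73 and 69.8 CPM to 26, 6.15 and 13.3 CPM (-2.16 ± 0.32). The 10 dph libraries differed among themselves by over 2-fold in all 3 genes, with the second library lowest, as in the length score. The 3 risen members were Eno2 (0.84 ± 0.11), neuronal enolase, CALB1 (0.45 ± 0.10), a calcium buffer, and gap43 (0.41 ± 0.09), a growth cone protein. Under the length score covariate 27 of the 60 were called lower and 2 higher, with a median of -0.55, and Gria4 (-0.91) and MAPT (-0.97) had adjusted p = 0.069 and 0.064 (edgeR).

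Sensory and rhythm genes also fell more often than they rose. Of 31 phototransduction genes 18 fell and 3 rose. ARR3, cone arrestin, went from 126, 133 and 136 CPM to 60.3, 52.8 and 38.5 CPM (log2 fold change -1.38 ± 0.20, edgeR adjusted p = 4.5e-06), and Gucy2f, the guanylate cyclase of photoreceptors, from 45.1, 47.5 and 50.4 CPM to 29.6, 11.8 and 23.7 CPM (-1.13 ± 0.24). The rises were led by GNGT2, the gamma subunit of cone transducin, from 362, 329 and 371 CPM to 491, 659 and 484 CPM (0.62 ± 0.13), which is a short transcript. Under that covariate 7 were called lower and 0 higher. ARR3 was still called, at -1.24, and Gucy2f was not, at -0.16. Of 16 clock genes 8 fell and 1 rose, against 2 lower and 0 higher with the covariate. TEF and HLF, clock output factors, fell by 1.94 ± 0.26 and 1.43 ± 0.25, and NR1D1, a clock repressor, by 1.22 ± 0.29. CLOCK rose from 6.01, 5.57 and 5.57 CPM to 15.5, 8.83 and 11.2 CPM (1.05 ± 0.32). The hour of sampling is not given in the sources used here.

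Digestive enzyme and plasma protein genes rose more often than they fell, and other gut and liver lists had a share of rises near or under the 30.3% of all rows. Of 11 pancreatic enzyme rows, 1 prey-like row left out, 7 rose and 1 fell, with a median log2 fold change of 0.64. The trypsin row Prss1 measured 3.3, 3.91 and 3.74 CPM at 5 dph and 47.1, 76.4 and 38.6 CPM at 10 dph (log2 fold change 3.89 ± 0.52, edgeR adjusted p = 3.3e-06), while the row Prss2 fell by 0.53 ± 0.13. Trypsins belong to a family of similar genes, and whether counts are split between such rows was not tested. CTRL, a chymotrypsin-like protease, went from 379, 375 and 384 CPM to 841, 844 and 714 CPM (1.08 ± 0.14). Of 28 liver plasma proteins 15 rose and 3 fell, against 9 and 4 with library totals only. Of 23 liver metabolic enzymes 5 rose and 6 fell (2 and 5 with the covariate), of 29 intestinal brush border genes 9 rose and 3 fell (5 and 1, or 7 and 10 with library totals), and of 4 stomach genes 1 rose and 1 fell. AHSG, fetuin A, which keeps calcium phosphate soluble, rose by 2.13 ± 0.30, and VTN, vitronectin, by 0.93 ± 0.15. The length score covariate left 5 pancreatic rows called higher and 1 lower, and 8 plasma proteins higher and 1 lower.

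Genes of vitamin A metabolism rose as well, 13 of 21 higher and 1 lower, with a median log2 fold change of 0.53. cyp26a1, which breaks down retinoic acid, measured 48.2, 36.8 and 43.9 CPM at 5 dph and 186, 214 and 206 CPM at 10 dph (log2 fold change 2.23 ± 0.30, edgeR adjusted p = 3e-06). Rbp2, an intestinal retinol binding protein, went from 146, 107 and 146 CPM to 309, 416 and 301 CPM (1.37 ± 0.16), and DHRS3, which turns retinal back into retinol, rose by 1.34 ± 0.16. No library of one age overlapped the other for these genes. The member that fell was aldh8a1 (-0.36), a dehydrogenase. The row Retsat, named for retinol saturase, had one of the largest falls of the table, from 14.5, 17.4 and 16.6 CPM to 0.932, 0.989 and 2.05 CPM (-3.61 ± 0.25). A second row, retsat, stood at 138 to 149 CPM at 5 dph and 136 to 148 CPM at 10 dph (0.01 ± 0.12), so which gene the first row counts is uncertain. In the fit with the length score 8 retinoid genes were called higher and 0 lower.

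The largest rises included a few genes known from the antiviral response in mammals, while in the immune list as a whole 6 of 21 members rose and 7 fell, near the shares of all rows. HERC6, an interferon-induced ubiquitin or ISG15 ligase in mammals, measured 2.16, 2.75 and 4.08 CPM at 5 dph and 18.8, 27 and 9.72 CPM at 10 dph (log2 fold change 2.63 ± 0.40, edgeR adjusted p = 9.7e-06). Znfx1, an RNA helicase of the antiviral response, went from 1.26, 1.23 and 1.97 CPM to 11.8, 25.6 and 5.41 CPM (3.26 ± 0.47), and the row Eif2ak2, a kinase that double-stranded RNA activates, from 1.62, 1.74 and 1.77 CPM to 10.6, 20.3 and 4.31 CPM (2.77 ± 0.47). In each of them the second library of 10 dph was highest and the third lowest, with a spread of over 2-fold, and all 3 lay above 5 dph. IRF3, a transcription factor of the interferon response, rose by 2.28 ± 0.33. The rows aste1, RTP3 and Herc4 had the same pattern over libraries, with log2 fold changes of 3.66 to 5.58. For aste1 the libraries held 0.36, 0.724 and 0.748 CPM at 5 dph and 24.2, 58.2 and 4.86 CPM at 10 dph. Herc4 belongs to a family of similar genes.

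Further antiviral genes, chosen after their values were seen, were DHX58, an RNA sensor, at 3.24, 4.34 and 2.85 CPM and then 14.2, 33.8 and 7.32 CPM (log2 fold change 2.41 ± 0.39), Usp18, which removes ISG15 (2.65 ± 0.47), and rsad2 (viperin). rsad2 had 0.0601, 0 and 0 CPM at 5 dph and 6.46, 18.8 and 0.479 CPM at 10 dph. The chemokine rows Ccl11 and CCL21 rose by 3.20 ± 0.46 and 2.05 ± 0.25. The immune list had 3 called higher and 4 lower with the length score as a covariate. Il1r2, a decoy receptor for interleukin 1, fell from 17.3, 24.5 and 26.2 CPM to 4.35, 8.76 and 5.34 CPM (-1.89 ± 0.35), and CXCL14, a chemokine of epithelia, fell by 0.55 ± 0.10. HERC6 rose by 2.77 and Znfx1 by 2.56 in the fit with the length score, where IRF3 (1.24) had an adjusted p of 0.052 (edgeR). There aste1 (4.36) was still called, whereas RTP3 (3.32) and Herc4 (2.41) had adjusted p of 0.052 and 0.1 (edgeR).

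Skin, kidney and ear genes fell more often than they rose, by number of members. The summed level of the epidermis list was nonetheless higher, 10900 to 11800 CPM at 5 dph and 13900 to 17200 CPM at 10 dph. That of the ear list was also higher, 823 to 904 CPM and then 999 to 1100 CPM. The kidney sums overlapped, 988 to 1060 CPM and then 903 to 1010 CPM. Of 24 epidermis genes 14 fell and 7 rose, with Krt17, a keratin, up from 37.3 to 40.4 CPM to 71.2 to 84.2 CPM (log2 fold change 1.03 ± 0.12), agr2 of mucous cells up by 1.72 ± 0.15, and Aloxe3 of the skin barrier down by 1.09 ± 0.15 (edgeR, adjusted p = 3.2e-06 for Aloxe3). Of 10 kidney genes 5 fell and 0 rose, among them the kidney transcription factors pax2a, from 38.6 to 45.6 CPM at 5 dph to 16.1 to 23.6 CPM at 10 dph, and pax8 (-0.81 ± 0.13). Of 16 inner ear genes 8 fell and 3 rose, and otomp, an otolith matrix protein, fell from 8.09 to 8.77 CPM to 2.61 to 5.41 CPM (-0.97 ± 0.41). Of 13 blood genes 8 rose and 3 fell, against 5 and 3 with library totals only. The globin rows hbb and hba1 rose by 0.68 ± 0.16 and 0.74 ± 0.20, and alas2, the first enzyme of heme synthesis in red cells, fell by 0.61 ± 0.24. Adding the length score as a covariate, the counts were 3 higher and 4 lower for epidermis, 0 and 3 for kidney, 0 and 2 for ear and 2 and 0 for blood. Of 18 lens genes 5 rose and 1 fell, against 1 and 1 with library totals only and also with the covariate. Without the first library of 10 dph 10 lens genes rose, and without the second 2 rose.

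A set of 69 low rows, here called prey-like, fell steeply. They follow the row Cp1, itself picked with earlier results known, across the 20 libraries outside the comparison (r over 0.85), and there had a 5 dph mean under 10 CPM and a 15 dph mean under 0.1 of it. Names of ribosomal proteins are carried by 40 of them. Of these, the rows RPL9, RPL9P7, RPL9P8 and RPL9P9 held identical counts in every low-DHA library of 5 and 10 dph. The same counts thus enter the number of rows and their sum more than once. All 69 were called lower in low DHA, whose 5 and 10 dph libraries the choice did not use. It did use the 15 dph libraries of low DHA, so a fall with age in this diet is in part set by the choice. Cp1, named for a cysteine protease, measured 16.5, 11.9 and 10.3 CPM at 5 dph and 0.186, 0.141 and 0 CPM at 10 dph. treh, a trehalase, measured 16.9, 12.4 and 12.9 CPM and then 0.497, 0.0706 and 0.137 CPM. The row Tmprss2, named for a serine protease, had 16.3, 13.8 and 8.16 CPM at 5 dph and no counts in any 10 dph library, at least 63-fold lower when the 10 dph mean is set to the level of 3 counts, 0.201 CPM. Over the 3 libraries of 10 dph all 69 rows together held 13 to 165 counts per library. No list of rotifer genes was available, and the source of these rows was not tested. Their sum was 218 ± 44.2 CPM at 5 dph and 4.82 ± 4.86 CPM at 10 dph (SD, n = 3) in low DHA, and in medium DHA it went from a mean of 222 to 63.9 CPM and in high DHA from 91.9 to 58.4 CPM.

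The age change in low DHA was set beside that in the other diets, which share no library with it. In medium DHA 2488 rows changed (34.1%, 15% higher and 19.1% lower) and in high DHA 1194 (16.4%, 8.69% higher and 7.68% lower), where 5 dph has 2 libraries. Of the rows higher at 10 dph in low DHA, 28.4% were also called higher in medium and 22.5% in high DHA, and of those lower, 24.7% and 21% were also called lower. Seen from the other side, low DHA shared 57.4% of the rises and 37.4% of the falls of medium DHA, and 78.4% and 78.9% of those of high DHA. Calls in the opposite direction numbered 390 in medium and 10 in high DHA. COL10A1 had nearly equal changes at the 3 levels, 2.73 (low), 2.62 (medium) and 2.90 (high), and the differences, with adjusted p of 0.73 and 0.62 (edgeR), missed the threshold. cyp26a1 (2.23, 2.04 and 1.63) likewise missed it. The cartilage gene MATN1, with 1.62 in low, fell in medium DHA (-1.57 ± 0.54, difference 3.19 ± 0.77, edgeR adjusted p = 0.0023), and had 0.33 in high DHA.

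The difference between the age changes was then tested row by row. The change differed between low and medium DHA in 3154 rows (43.3%, 20.5% higher in low and 22.7% lower) and between low and high DHA in 1321 rows (18.1%, 4.53% higher and 13.6% lower). Once the length score was a covariate, these counts were 0 and 57, with 744 and 655 rows at an unadjusted p under 0.05. Without the second library of high DHA at 10 dph the second count was 485. It was lower still when either of the 2 libraries of high DHA at 5 dph was left out, a group that then has no replicate. Of 29 fasting and wasting genes 17 fell further in low than in medium DHA and 17 further than in high DHA. FBXO32 had log2 fold changes of -2.92 at the low, -1.18 at the medium and -1.08 at the high DHA level, and CREBRF of -2.64, -0.24 and -0.72. The age change of sterol genes had medians of 1.05 in low and 0.99 in medium DHA, and 3 of 22 had a higher change in low. In high DHA the median was 0.40, and 11 of 22 had a higher change in low. In the fit with the length score 1 row of the whole table had a higher change in low than in high DHA, and 0 did against medium. FDPS rose by 2.26, 1.71 and 0.83 in the same order. In the test of the difference 53 of 60 neuron and synapse genes had a lower change in low than in medium DHA. A lower change than in high DHA was called for 34. Beside this, the length score fell in low, rose in medium and kept its mean in high DHA.

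**Figure D5:**
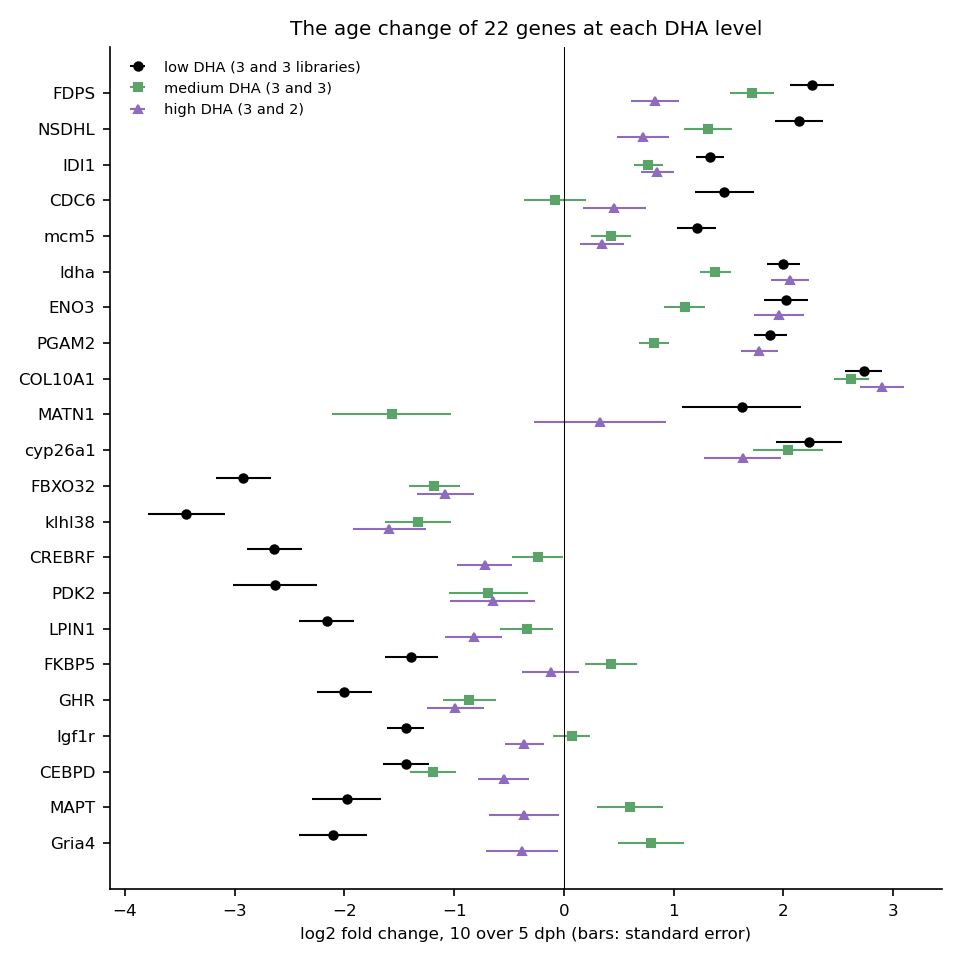
Log2 fold change, 10 over 5 dph, of 22 genes at each DHA level, with the standard error of the fit as bars. FBXO32, klhl38 and CREBRF lie further left in low DHA (black) than in the other diets, COL10A1 lies between 2.62 and 2.90 in all 3, and FDPS falls in order from 2.26 in low to 0.83 in high DHA.

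What followed in low DHA from 10 to 15 dph is given as levels, because the comparison of 15 with 10 dph shares the 10 dph libraries. FBXO32 had a mean of 279 CPM at 5, 36.8 CPM at 10 and 27.5 CPM at 15 dph, and GHR of 204, 51.2 and 36.5 CPM. FDPS went on upward, from 39.7 to 189 and 313 CPM, and COL10A1 from 115 to 759 and 967 CPM. Others turned back after 10 dph: cyp26a1 measured 43, 202 and 41.7 CPM, Gria4 54.7, 12.7 and 22.6 CPM, and aste1 0.611, 29.1 and 5.66 CPM. The length score had returned to a mean of -3.4 at 15 dph. Prss1 had 3.65, 54 and 453 CPM.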

How the data were processed

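RNA of whole larvae was extracted with Tri-reagent and sequenced from TruSeq libraries, per the labels' protocols. The deposited table holds the authors' raw counts per gene name, 7295 rows in 26 libraries, whole numbers. The aligner, counting program, assembly and strand setting were not given in the sources used here. The submitters' processing notes name DESeq2 without a version. Antisense or overlapping genes therefore cannot be told apart. Rows are named as deposited; 454 names are shared but for capitals by 916 rows, which were kept apart. The 4 internal control samples were not analysed here, and no sequence is printed.

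The tools were R 4.3.3 and edgeR 4.0.16. After filterByExpr 7292 rows were scaled by TMM and fitted with 9 group means over all 26 libraries (17 residual degrees of freedom), and contrasts were tested by the two-sided quasi-likelihood F-test with robust estimation and Benjamini-Hochberg adjustment over all rows, at 0.05. SE were computed from the F statistic. The common biological coefficient of variation was 11.9%. Totals of all libraries ran from 12805866 to 19169404 counts. Library measures were compared by exact permutation tests. DESeq2 1.42.0 and other alternatives are in the closing section.

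The 48 gene lists, the named genes and the prey-like rows were chosen with earlier results of these data known, and lists are described by counts and medians without a set test. Genes were named by a rule: the 15 largest rises and falls among called rows of at least 5 CPM whose libraries do not overlap, up to 6 members a list, and for each difference between diets the 8 smallest p in each direction. Others were chosen after their values were seen: cdk1, TRIM63, FKBP5, KLF9, nr3c1, the FOXO rows, IRS2 and Irs2, and the marker, antiviral and twin rows named as such. CCL21, Tyms, PPAT and impdh2 were likewise named outside the rule. Deviations of same-numbered libraries of the 2 ages did not correlate in a way that shows pairing, and their tanks are not stated. Some genes that the rule names are not reported here.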

Additional observations from a re-analysis of the deposited data

Results flagged for a closer look

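The change from 5 to 10 dph differed between diets by edgeR's quasi-likelihood test of the difference itself, in 3154 rows between low and medium DHA and in 1321 rows between low and high DHA. With the length score as a covariate the counts were 0 and 57, with 744 and 655 rows at an unadjusted p under 0.05. Without the second library of high DHA at 10 dph the second count was 485. It was lower still when either of the 2 libraries of high DHA at 5 dph was left out, a group that then has no replicate. The length score fell in low and rose in medium DHA, so the covariate overlaps with that difference. The count of 0 therefore does not show that the changes were equal. The part of the length score in these differences was not tested. Differences are log2 values, low minus the other diet, with their SE and the adjusted p.

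Against medium DHA, 8 genes with the smallest p had a higher change in low DHA. They were MYL5, a myosin light chain (2.06 ± 0.32, adjusted p = 5.4e-05), Gm525 (1.53), NME1, a nucleoside diphosphate kinase (1.23), rps29 (1.18), NDUFS5 of respiratory complex I (1.14), Erh (1.02), rrp15, which acts in ribosome assembly (0.94), and NFYB, a CCAAT-binding factor (0.70). Except for MYL5, which was not called in low DHA (-0.02), all of these rose in low DHA, and all 8 had a negative log2 fold change in medium DHA. Their adjusted p ran from 3.8e-05 to 7e-05. 8 genes had a lower change in low DHA, each with an adjusted p of 2.9e-05. They were Dlgap2, a postsynaptic scaffold (-2.02), NHLRC3 (-1.96), ADGRF5, an adhesion receptor (-1.93), Lurap1 (-1.72), OIT3 (-1.72), PARD6A, a cell polarity protein (-1.32), VGF, a peptide precursor of neurons (-1.31), and GRAMD1B, a carrier of cholesterol between membranes (-1.16). OIT3 was not called in low DHA (-0.18) and rose in medium DHA (1.54).

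Against high DHA, the genes with the smallest p and a higher change in low DHA were cetA (1.20 ± 0.20, adjusted p = 0.0044), KPNA2, a nuclear import receptor (1.14), DKC1 (1.10), coil of Cajal bodies (1.06), atad3 of mitochondria (0.97), RCC1, the exchange factor of Ran (0.95), utp15 (0.77) and NOP58 (0.65). DKC1, utp15 and NOP58 act in ribosome assembly. Of the 48 genes of that list 14 had a higher change in low than in high DHA and 0 a lower one, beside 4.53% with a higher change among all rows. With the length score as a covariate 1 row of the whole table had a higher change in low than in high DHA. Without the second library of high DHA at 10 dph 95 did. Fewer did when either of the 2 libraries of high DHA at 5 dph was left out. The name cetA is one used for a bacterial gene, so the identity of that row is uncertain. Its log2 fold change was 0.04 in low and -1.16 in high DHA. A lower change in low DHA was seen for OTUD1, a deubiquitinase (-2.19 ± 0.33, adjusted p = 0.0018), ABRA, an actin-binding activator of muscle transcription (-2.06), TSG101 of the endosomal sorting machinery (-1.96), NFAT5, the osmotic stress factor (-1.61), ALPK2, a kinase of muscle and heart (-1.55), NHLRC3 (-1.49) and mxd1, an antagonist of MYC (-0.98). ABRA measured 31, 35.6 and 31.7 CPM at 5 dph and 9.44, 10.4 and 10.5 CPM at 10 dph in low DHA, against 16.8 and 17.4 CPM and then 25.8, 21.4 and 18.7 CPM in high DHA. The low-DHA libraries thus stood above those of high DHA at 5 dph and below them at 10 dph. The prey-like row Tmprss2 was also among the smallest p and is left out, because its fitted difference depends on 10 dph libraries with no counts.

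Of the genes set beside the other diets in the report, FBXO32 had a difference of -1.73 ± 0.33 against medium and -1.84 ± 0.36 against high DHA (adjusted p = 0.0003 and 0.0068), and CREBRF of -2.40 and -1.92. MATN1 of cartilage, which rose in low and fell in medium DHA, had a difference of 3.19 ± 0.77 (adjusted p = 0.0023). FDPS had a difference of 1.42 ± 0.29 against high DHA (adjusted p = 0.0072).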

How the results depend on the processing

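The 4317 rows changed between 10 and 5 dph in low DHA numbered 3852 to 4663 with DESeq2 (4287), other scalings, other filters on low counts, the 6 low-DHA libraries alone, no robust estimation, or names summed over capitals. Upper quartile scaling gave 61.1% rises among calls and a median of all rows of 0.15. Library totals only gave 1053 higher for the age change, 356 higher against medium and 132 higher against high DHA, where upper quartile scaling gave 645. With the length score as a covariate the age change had 1898 rows (862 higher, 1036 lower), the difference from medium DHA 0 (edgeR, 0 higher, 0 lower, 744 at an unadjusted p under 0.05), and that from high DHA 57 (1 higher, 56 lower). A test against 1.5-fold gave 1490 (349 higher, 1141 lower), 1189 (111 and 1078) and 30 (2 and 28). Leaving out 1 library gave 3822 to 4167 rows for the age change (1867 to 2276 higher, 1839 to 2036 lower), and 3384 of the 4317 were called in the same direction in all 6 such fits. It gave 2803 to 3546 for the difference from medium (1222 to 1783 and 1501 to 1763) and 94 to 1868 for that from high DHA (22 to 576 and 72 to 1320). The last count moved most when either of the 2 libraries of high DHA at 5 dph was left out, lower than in any other such fit. That group then has no replicate, so no count is given. It also moved without single libraries of high DHA at 10 dph (686 without replicate 1 and 485 without replicate 2). For low DHA it moved at 5 dph (786 and 808 without replicates 2 and 3) and at 10 dph (523 and 807 without replicates 2 and 3). 2 alternatives were chosen after seeing the data: 4221 rows changed without the prey-like rows, and 4052 without the 2 libraries of lowest length score. In the latter 712 rows had a higher change in low than in medium DHA, and 196 a higher one than in high DHA. The cause of these shifts was not tested.

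Same-numbered libraries of 5 and 10 dph had correlations of deviations of -0.07, -0.11 and 0.11, which does not show pairing, so the block is given only here, and only number 3 correlated best with its own. With a replicate block within diet 4281 rows changed, and with a block in the 6 libraries alone 4054. The block together with the length score gave 1177 (466 higher, 711 lower), 0 (0 and 0, with 766 at an unadjusted p under 0.05) and 8 (0 higher, 8 lower). Among the 170 genes named, the sign turned under the length score for CKM (-0.08) and NDUFS5 (-0.08, and -0.10 with the block added), and 50 other calls were lost there. The number of counts limits the precision of rows near and under 1 CPM.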

Other observations

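Other groups with no account in the report are given here as values. Of 20 genes of purine and pyrimidine synthesis 13 rose and 2 fell from 5 to 10 dph in low DHA, against 6 and 2 with library totals as the only scaling and 4 and 1 with the length score as a covariate. The rises included CAD, which starts pyrimidine synthesis (log2 fold change 0.79 ± 0.26, edgeR adjusted p = 0.012), Tyms, which makes thymidylate (0.76 ± 0.15), and PPAT, the first committed step of purine synthesis (0.46 ± 0.10). With the covariate the log2 fold change was 0.90 for CAD, 0.57 for Tyms and 0.23 for PPAT. Their adjusted p were then 0.12 (CAD), 0.07 (Tyms) and 0.23 (PPAT), all by edgeR. The fallen members were impdh1a (-0.84 ± 0.12) and impdh1b (-0.23 ± 0.08), isoforms of IMP dehydrogenase, while impdh2, the isoform of dividing cells in mammals, rose by 0.56 ± 0.10. Serine synthesis rose in its measured steps PHGDH (0.97 ± 0.12) and PSAT1 (1.06 ± 0.12), whereas 4 other genes of their list, which holds the endoplasmic reticulum stress and amino acid response, fell, HERPUD1 the furthest (-0.93 ± 0.14, adjusted p = 0.052 with the covariate by edgeR).

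Of 20 oxidative stress genes 10 rose and 1 fell, against 5 and 5 with library totals only and 0 and 1 with the covariate. They included PRDX1, a peroxiredoxin (0.60 ± 0.10), and GPX4, which protects membranes from lipid peroxides (0.61 ± 0.12), with an adjusted p of 0.13 and 0.43 under the covariate (edgeR). Among 35 translation factors and tRNA synthetases, prey-like rows left out, 19 rose and 2 fell, against 10 and 11 with library totals only and 6 and 5 with the covariate. Of 12 pigment cell genes 2 rose and 5 fell (0 and 4 with the covariate), and of 16 genes of ionocytes 3 rose and 5 fell. For the ionocyte genes the counts were 2 and 7 with library totals only, 4 and 3 with upper quartile scaling and 1 and 2 with the covariate.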
